A study of Mus musculus with 12 samples.

Results

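*Cd74*, *H2-Aa*, *H2-Ab1*, *H2-Eb1*, *Cd79a*, *Cd79b*, *Ms4a1*, *Blk* and *Cd22* are genes of B-cells and of MHC class II antigen presentation, and were read here as markers of the cells in total thymocytes that are not developing T-cells. Members were the probe sets to which the platform annotation gives 1 of these 9 symbols alone. They were 11 of the 12488 probe sets on the array, since *Ms4a1* and *Blk* have 2 each. A probe set was tested only where its mean signal reached 100 in 1 or more of the 6 groups, and 9 of the 11 probe sets, from 8 of the 9 genes, passed it, against 9478 probe sets in all.

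Thymocytes came from 6 female mice of the C57Bl/6 x 129Sv (F1) strain, aged 6 to 7 weeks. The controls were 4 mice, which the study pools: 2 had the *Lck-Cre* transgene with intact *Med23* (Med23+/+;Lck-Cre, here *Lck-Cre*), and 2 had both floxed alleles and no Cre (Med23flox/flox). The MED23 null group was 2 mice with floxed alleles and the transgene together (Med23flox/flox;Lck-Cre). The *Lck-Cre* transgene is driven in developing T-cells, so B-cells, dendritic cells and epithelium of a MED23 null thymus are not the cells in which *Med23* was meant to be deleted. Thymuses were pressed through a mesh and the thymocytes were not sorted, so that such cells could enter each array. Cells of every mouse rested for 4 h and then spent 3 h either unstimulated (mock) or in wells coated with αCD3, an antibody against the T-cell receptor complex. Each mouse gave 1 array per treatment, which makes 12 arrays.

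MHC class II molecules are pairs of an α and a β chain that show peptides to CD4 T-cells. H2-Aa and H2-Ab1 form the I-A molecule, and H2-Eb1 is the β chain of I-E. Cd74, the invariant chain, escorts them through the cell until a peptide is loaded. In the thymus they are made by epithelium, dendritic cells, macrophages and B-cells, and they select CD4 thymocytes, which in the mouse make no class II themselves. Cd79a and Cd79b are the signalling chains of the B-cell receptor, Ms4a1 is the surface protein CD20, Cd22 is an inhibitory receptor of B-cells, and Blk is a Src family kinase of B-cells that some thymocytes also make.

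Class II genes share a promoter module in front of their start, of which the Y box, bound by the factor NF-Y, is the part nearest to it. Of the 9 genes, 4 (*H2-Aa*, *H2-Eb1*, *Cd79a* and *Cd22*) have a RefSeq promoter in the reference used here. The sequences of *H2-Aa* and *H2-Eb1* are shown, since these are the class II members among them. Whether the promoter sequence bears on their signals was not tested. The 100 bases before the start are given 5′ to 3′ on the strand of the gene in build GRCm38.p6, at chr17:34287824-34287923 (minus strand) for *H2-Aa* and chr17:34305767-34305866 (plus strand) for *H2-Eb1*, with the Y box letters CTGATTGG in capitals.
H2-Aa: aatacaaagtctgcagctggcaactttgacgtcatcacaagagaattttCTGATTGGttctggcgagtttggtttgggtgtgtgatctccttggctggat
H2-Eb1: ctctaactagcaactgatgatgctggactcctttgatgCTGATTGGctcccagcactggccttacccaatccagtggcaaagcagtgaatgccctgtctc
The Y box began 51 bases before the start of *H2-Aa* and 62 bases before that of *H2-Eb1*. Read on both strands, these letters were present in 2.51% of 32851 promoters over the 100 bases before the start and in 4.1% over all 300 bases, which end 50 bases past the start. They were not in the windows of *Cd79a* and *Cd22*. Of 13 other class II pathway genes with a promoter in the reference, 2 held them within the 300 bases. These were *H2-Oa*, 46 bases before the start, and *H2-Eb2*, 103 bases before it. The 13 also include genes that are not class II chains, such as *Ctss* and *Cd80*.

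The targeted gene was read first. The *Med23* probe set had mock signals of 268.4 and 207.3 in the MED23 null mice and 288.1 to 424.2 in the controls, and αCD3 signals of 252.1 and 239 against 309.9 to 488.8. In both treatments the null arrays lay below every control array, and it is not known here whether its probes lie in the deleted exons. The labelled cell type was checked against its own genes. All 16 T-lineage genes found on the array passed the signal filter, with summed mock signals of 109765 to 133618. Of 23 B-cell genes on the array besides the members, 19 passed, with summed mock signals of 9683 to 11251. *Cd22* and a further 4 B-cell genes (*Cd72*, *Cr2*, *Fcer2a* and *Ebf1*) did not pass the signal filter. Of the 12 arrays, the αCD3 array of Med23flox/flox replicate 1 stood apart, with a lower quartile of 85.3 against 50 to 58.4 on the others. In bulk thymocytes, fewer cells of a type and less RNA per cell cannot be told apart. The mice are separate animals per the labels, but with 2 to 4 per group the spread between them is poorly known.

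Of the class II genes, *Cd74* was the steadiest. Its mock signals were 937.1 and 1037 in the *Lck-Cre* mice, 1042 and 1068 in the Med23flox/flox mice, and 1212 and 999.7 in the MED23 null mice. After αCD3 they were 889.1 and 1009, 1014 and 1379, and 1122 and 1003 in the same order. Every array therefore held between 889.1 and 1379, with a coefficient of variation of 12.3% over the 12 arrays, and the groups overlapped in both treatments. The mouse means, over the mock and the αCD3 array of a mouse, ran from 913.1 in *Lck-Cre* replicate 1 to 1224 in Med23flox/flox replicate 2, a range of 1.34-fold. The mean ratio of αCD3 to mock within a mouse was 1.05 ± 0.164 (SD, n = 4) in the controls and 0.964 ± 0.0551 (SD, n = 2) in the null mice.

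*H2-Eb1* was also well above the filter on every array. Its mock signals were 984.1 and 589.5 in the *Lck-Cre* mice, 893.3 and 602.8 in the Med23flox/flox mice, and 897.8 and 548.5 in the MED23 null mice, so that each genotype held 1 high and 1 low mouse. After αCD3 the signals were 607.9 and 535, 878.5 and 850.8, and 515.9 and 757.9. The order of the mice was not kept between treatments. In the null group the mouse with the higher mock signal had the lower αCD3 signal. The partner chain of H2-Eb1 in I-E is encoded by *H2-Ea*, which is not expressed in mice of the H2 b haplotype such as C57BL/6. Its probe set, chosen after its values were seen, ranged from 8.9 to 115.1 and did not pass the filter.

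The chains of I-A varied more between arrays, with coefficients of variation of 48.5% for *H2-Aa* and 52.9% for *H2-Ab1*. *H2-Aa* had mock signals of 239.5 and 97.6 in the *Lck-Cre* mice, 430.3 and 267.8 in the Med23flox/flox mice, and 195.9 and 142 in the null mice. After αCD3 they were 176.5 and 178.1, 231.6 and 434, and 97.5 and 333.9. Both Med23flox/flox mice were above the other 4 mice in the mock arrays, whereas after αCD3 null replicate 2 lay between them. *H2-Ab1* had mock signals of 117.2 and 200.4, 200.8 and 156.8, and 184.4 and 59.1, and αCD3 signals of 285.3 and 65.5, 141.4 and 346.9, and 255.9 and 63.8 in that order of genotypes. Null replicate 2 was the lowest mouse for *H2-Ab1* in both treatments, and its mean of 61.5 was 4.1-fold below the 251.8 of Med23flox/flox replicate 2. This was the widest range of mouse means among the 9 tested probe sets, whose median range was 1.7-fold, against 1.6-fold for the median probe set of the array.

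*Cd79a* and *Cd79b* encode partners in the B-cell receptor. *Cd79b* had mock signals of 586.2 and 588.4 in the *Lck-Cre* mice, 778.8 and 595.7 in the Med23flox/flox mice, and 746.8 and 666.3 in the null mice. Its αCD3 signals were 486.9 and 600.6, 695.1 and 529.5, and 728.5 and 697.2. After αCD3, both null arrays exceeded all 4 control arrays, by a narrow margin over the highest control. *Cd79a* was less steady, with mock signals of 274 and 414.5, 308.1 and 245.4, and 339.5 and 329, and αCD3 signals of 377.6 and 220.1, 646.8 and 315.9, and 425.8 and 354.8. The genotypes overlapped in both treatments. The highest *Cd79a* value came from the αCD3 array that stood apart. That array held the highest of 12 signals for 4 of the 11 member probe sets, and for 21.8% of all probe sets.

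*Ms4a1* was measured by a pair of probe sets that can be set beside each other only in direction. On probe set 104173_at the mock signals were 299.9 and 303.7 in the *Lck-Cre* mice, 288.8 and 273.1 in the Med23flox/flox mice, and 487.5 and 442.5 in the null mice. On probe set 99446_at they were 54.5 and 65.9, 85 and 64.6, and 180.2 and 201.6. On either one the mock arrays of the null mice exceeded those of all 4 controls, which for 99446_at were all under the filter value of 100. After αCD3 the signals on 104173_at were 342.9 and 308.3, 383 and 327.5, and 401.9 and 227.5. On 99446_at they were 232.7 and 52.9, 169.4 and 196.4, and 73.1 and 161.3. The groups overlapped after αCD3 on both, and the null mouse that was highest on 104173_at was the lower of the null pair on 99446_at.

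*Blk* on probe set 95893_at was also higher in the mock arrays of the null mice. Its mock signals were 186 and 163.2 in the *Lck-Cre* mice, 179.1 and 98.1 in the Med23flox/flox mice, and 323.3 and 237.2 in the null mice, with no overlap. Its αCD3 signals were 281.2 and 177.8, 424.1 and 260.8, and 236.4 and 217, where the groups overlapped. The other *Blk* probe set, 92359_at, did not share it. Its signals ran from 13.9 to 138.8, and its mean stayed under the filter value of 100 in every group. Its mock signals in the null mice, 31.2 and 13.9, were among the lower ones. The mock means were 22.55 in null and 80.2 in control mice, opposite in direction to 95893_at. *Cd22* ranged from 18.1 to 88.7 on all 12 arrays, under 100 throughout, and was not tested.

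**Figure D1:**
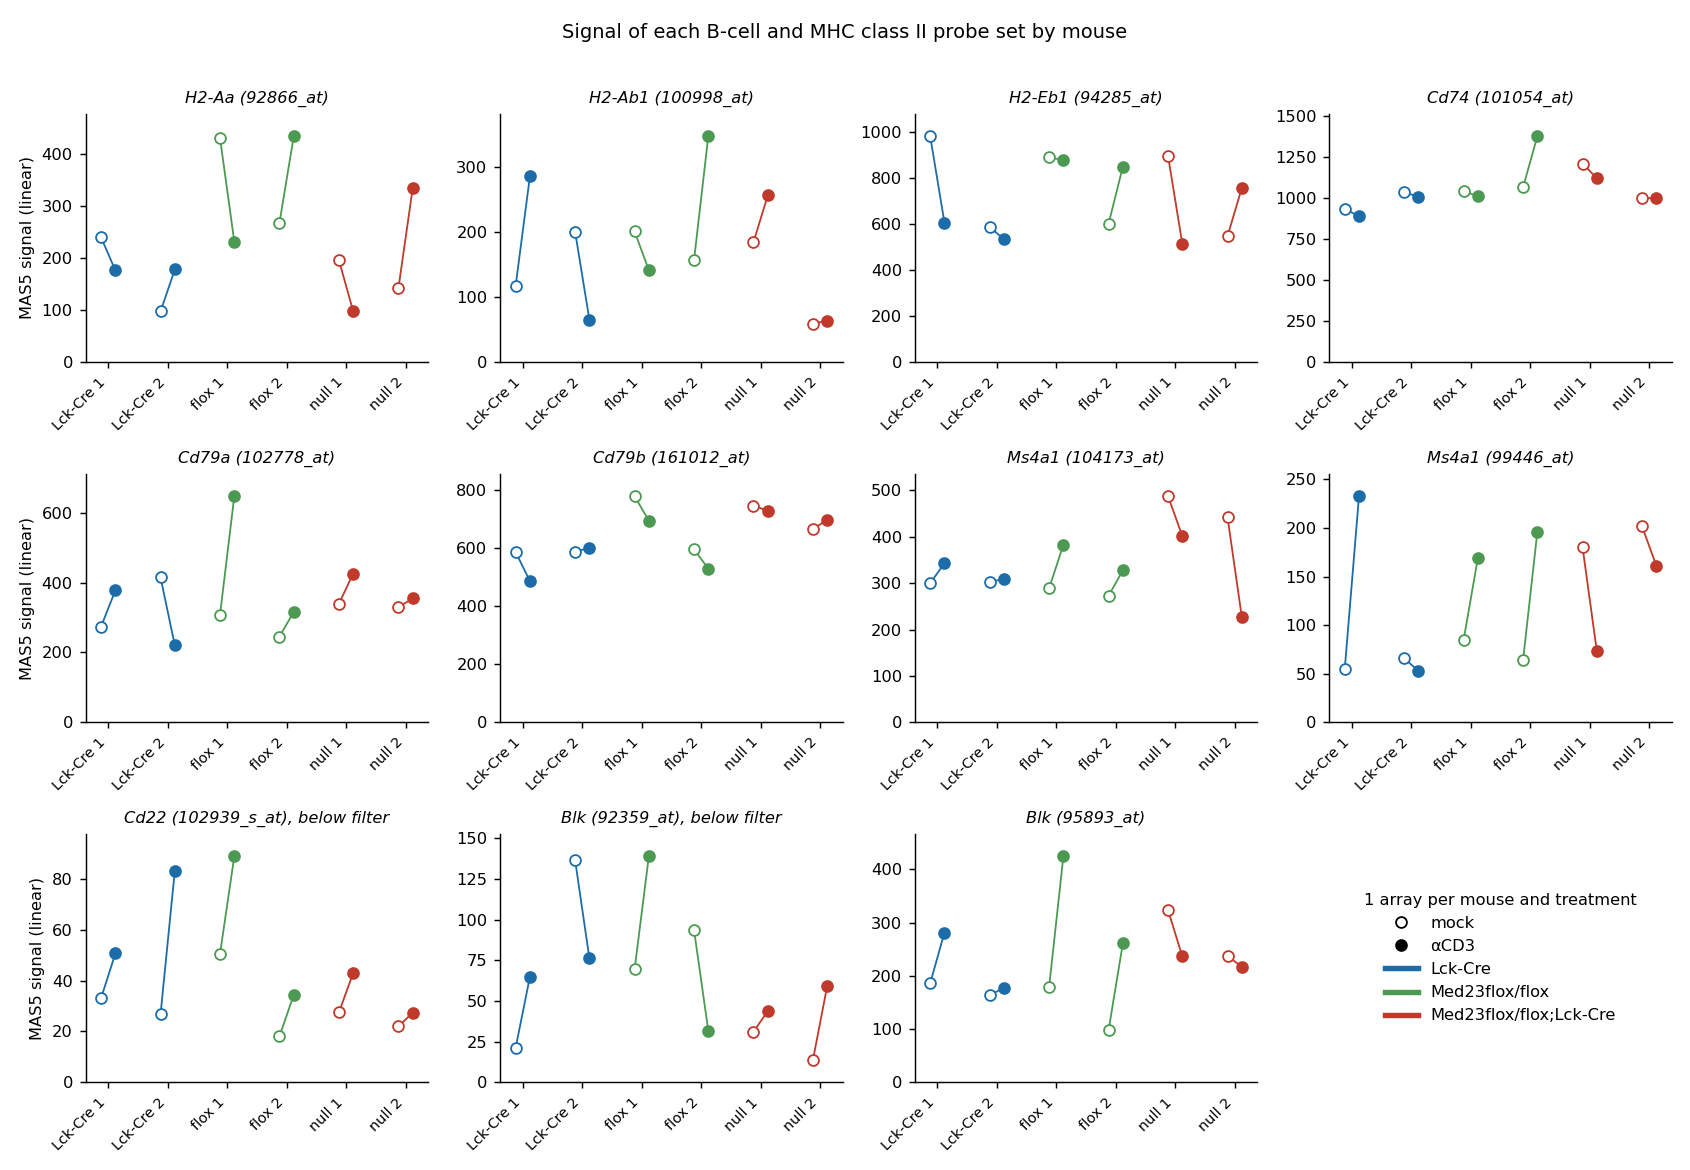
MAS5 signal (linear scale, from 0) of the 11 member probe sets in 6 mice, with open circles for mock and filled circles for αCD3 arrays, a line joining the arrays of 1 mouse and colours for the genotypes. *Cd74* and *Cd79b* had the lowest coefficients of variation, 12.3% and 14.1%, whereas the mock signals of both *Ms4a1* probe sets and of *Blk* 95893_at were higher in the null mice (red) than in the 4 controls.

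The first comparison asked whether the members differed between MED23 null and control thymocytes without stimulus. Differences are between mean values of log2(signal + 50), a scale that understates the changes of low signals. They were tested with limma, and a probe set was called where its p adjusted over all 9478 probe sets was under 0.05. No member was called, and 0% of the 9478 probe sets were. For *Ms4a1* the log2 difference was 1.04 (standard error, SE, 0.16, adjusted p = 0.219 from limma) on 99446_at and 0.59 (SE 0.14, adjusted p = 0.384) on 104173_at. In linear signals these were means of 190.9 ± 15.1 (SD, n = 2) against 67.5 ± 12.7 (SD, n = 4), and of 465 ± 31.8 (SD, n = 2) against 291.4 ± 13.7 (SD, n = 4). *Blk* 95893_at differed by 0.69 on the log2 scale (SE 0.24, adjusted p = 0.599). These 3 of the 9 tested probe sets had an unadjusted p under 0.05, as had 7.4% of all probe sets, and 2 of the 3 are from 1 gene. The same 3 were the members whose null mock arrays lay above all control arrays, a pattern held by 9.27% of all probe sets. No member lay below all controls, as 8.44% of all probe sets did.

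The class II members and the B-cell receptor chains had smaller differences in mock thymocytes. For *Cd74* the log2 difference was 0.11, with a 95% confidence interval of -0.26 to 0.47 (adjusted p = 0.896). For *Cd79b* it was 0.15 (-0.27 to 0.56) and for *Cd79a* 0.11 (-0.38 to 0.61). The intervals of *H2-Ab1*, -0.43 (-1.22 to 0.35), and of *H2-Aa*, -0.39 (-1.42 to 0.64), are too wide to tell a 2-fold loss from none. *H2-Eb1* had a log2 difference of -0.08 (-0.77 to 0.60). Without null replicate 2, *H2-Ab1* and *H2-Eb1* had values of 0.12 and 0.25. The median over the 9 probe sets was 0.113, against 0.0145 for all probe sets.

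Summed signals of other gene lists also separated the groups in mock thymocytes, and their part in the result was not tested. The summed signal of 19 other B-cell genes ran from 11174 to 11251 in null and from 9683 to 10577 in control mice. Most of that gap came from the immunoglobulin heavy chain gene *Ighm*, read on its probe set with the highest signals. There the mock means were 5897 in null and 5124 in control mice. Other *Ighm* probe sets went both ways on the mock arrays. The next highest had means of 2631 in null and 2220 in control mice. Lower ones had, for example, 274.1 in null against 405.2 in control mice, and 41.8 against 101.6. By gene, 9 of the 19 were higher and 10 lower in the null mice, with a median log2 difference of -0.0355. The summed signal of 21 dendritic cell and macrophage genes was 12014 to 12239 in null against 11186 to 11670 in control mice. For 6 NK and cytotoxic cell genes it was 3925 to 5634 against 1554 to 2159, most of it from granzyme A (*Gzma*). The sums that were lower in the null mice were those of 16 T-lineage genes, 109765 to 114367 against 128456 to 133618, and of 11 genes of mature single positive thymocytes, 13561 to 14786 against 17605 to 23556. In none of these 5 sums did the groups overlap on the mock arrays. Among single probe sets, the null mock arrays lay above all controls for 9.27% and below all for 8.44%. No such share was taken for sums, and a linear sum follows its highest signals. On the mock arrays the groups overlapped for 13 other class II pathway genes (5562 to 10901 against 5871 to 15327) and 6 thymic epithelial genes (2756 to 7435 against 2947 to 13573). The protease gene *Ctsl*, at 1910 to 6516 against 1808 to 12285, is on both lists, so these sums are not independent. They also overlapped for 5 erythroid genes (15457 to 37782 against 7012 to 17302), mostly from *Hba-a1*, and for the members themselves (3424 to 4387 against 3308 to 4121).

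After αCD3, no member was called by limma between MED23 null and control thymocytes, and 0% of all probe sets were. No member had an unadjusted p under 0.05 either, as had 6.16% of all probe sets. The lowest adjusted p of a member was 0.904, for *Cd79b*, with a log2 difference of 0.29 (95% confidence interval -0.17 to 0.75) and signals of 712.8 ± 22.2 (SD, n = 2) in null and 578 ± 91.1 (SD, n = 4) in control thymocytes. *Cd79b* was the 1 member of 9 whose null arrays lay above all controls, as did 6.9% of all probe sets. None lay below, as did 8.61%. The *Ms4a1* differences were -0.30 (-1.34 to 0.74) on 99446_at and -0.14 (-0.69 to 0.42) on 104173_at, and that of *Blk* was -0.23 (-0.92 to 0.46). These 3 values were below 0, unlike those in mock thymocytes, but both *Ms4a1* values turned with 1 mouse. That of 104173_at was 0.21 without null replicate 2, and that of 99446_at was 0.085 without null replicate 1. *Cd74* had a log2 difference of 0.00 (-0.51 to 0.51). On the αCD3 arrays the 3′ to 5′ ratio of the actin control, a sign of RNA quality, reached 1.9 and 1.61 in null mice against 1.35 to 1.41 in controls. That of the *Gapdh* control was 0.636 and 0.766 in the same null mice, against 0.599 to 0.648, so only null replicate 2 was above the controls on both. The summed signals of the B-cell, NK, T-lineage and mature thymocyte lists again did not overlap between the groups. That of the dendritic cell and macrophage genes did, at 11009 to 13199 in null against 10287 to 12463 in control mice, whereas that of the erythroid genes did not, at 16445 to 39122 against 6812 to 15934. The part of RNA quality and of these lists in the members' values was not tested.

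When the mock and αCD3 values of each mouse were averaged, no member was called by limma between null and control mice and 0% of all probe sets were. At an unadjusted p under 0.05 there was no member and 7.98% of all probe sets. The mouse means of *Ms4a1* differed by 0.37 (-0.19 to 0.93) on 99446_at and by 0.23 (-0.13 to 0.58) on 104173_at, those of *Cd79b* by 0.22 (-0.15 to 0.59), and those of *Cd74* by 0.05 (-0.30 to 0.41) on the log2 scale. *H2-Ab1* had the lowest value, -0.38 (-1.22 to 0.46).

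**Figure D2:**
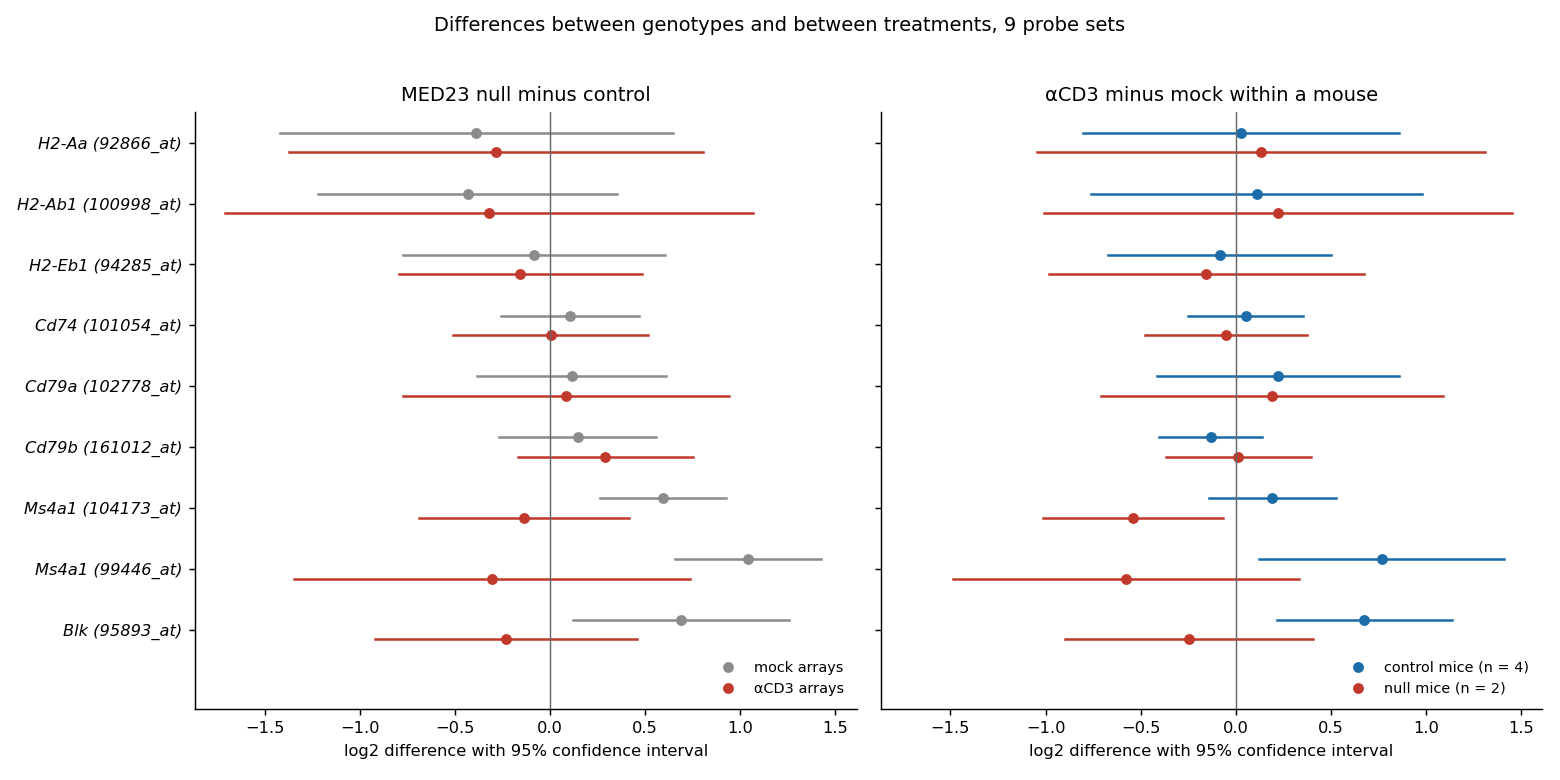
Log2 differences (points) with 95% confidence intervals (lines) from limma for the 9 tested member probe sets, on the left for MED23 null minus control on mock and αCD3 arrays and on the right for αCD3 minus mock within control and null mice. On the left the mock intervals of both *Ms4a1* probe sets and of *Blk* lie above 0 before adjustment, and all αCD3 intervals hold 0.

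The next question was whether αCD3 changed the members. In control thymocytes no member was called, while 0.148% of all probe sets (14, all upward) were. *Blk* 95893_at had αCD3 to mock ratios of 1.51 and 1.09 in the *Lck-Cre* mice and 2.37 and 2.66 in the Med23flox/flox mice, all above 1. Its log2 change was 0.68 (SE 0.19, adjusted p = 0.426 from limma). *Ms4a1* 99446_at had ratios of 4.27, 0.803, 1.99 and 3.04 in that order and changed by 0.77 on the log2 scale (SE 0.27, adjusted p = 0.578). Its ratio was below 1 in *Lck-Cre* replicate 2. These were the 2 of 9 members with an unadjusted p under 0.05, as had 7.78% of all probe sets. *Ms4a1* 104173_at had ratios closer to 1, of 1.14, 1.02, 1.33 and 1.2.

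The remaining members showed no common direction in the controls. *Cd79b* changed by -0.13 (95% confidence interval -0.40 to 0.14) and *Cd74* by 0.05 (-0.25 to 0.35) on the log2 scale. For *H2-Ab1* the ratios ran from 0.327 to 2.43 and for *H2-Aa* from 0.538 to 1.82, with 2 mice up and 2 down for each. The members of a mouse did not all go one way. In Med23flox/flox replicate 2, 8 of the 9 members had a ratio above 1, with a median of 1.41, whereas its median over all probe sets was 1. The counts were 5 and 4 of 9 in the *Lck-Cre* mice and 4 of 9 in Med23flox/flox replicate 1.

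In MED23 null thymocytes no member was called after αCD3, and 0.0317% of all probe sets (3, all upward) were. *Ms4a1* 104173_at had ratios of 0.824 and 0.514 and a change of -0.54 on the log2 scale (SE 0.20, adjusted p = 0.87). It was the only member with an unadjusted p under 0.05, as had 5.36% of all probe sets. The ratios of *Ms4a1* 99446_at were 0.406 and 0.8, and those of *Blk* were 0.731 and 0.915. The class II genes went both ways. *H2-Aa* had a ratio of 0.498 in null replicate 1 and 2.35 in null replicate 2, and *H2-Eb1* had 0.575 and 1.38. Of the 9 members, 2 had a ratio above 1 in the first null mouse and 6 in the second.

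The difference in induction between null and control mice was tested directly. No member was called by limma, and 0% of all probe sets were, while 3 of 9 members and 5.13% of all probe sets had an unadjusted p under 0.05. *Ms4a1* had values of -1.34 on 99446_at (95% confidence interval -2.46 to -0.23, adjusted p = 0.955 from limma) and -0.73 on 104173_at (-1.31 to -0.15, adjusted p = 0.95), and *Blk* had -0.92 (-1.72 to -0.12, adjusted p = 0.957). On *Ms4a1* 104173_at and *Blk* 95893_at the ratio was above 1 in all 4 control mice and below 1 in both null mice, which makes 2 of 9 members against 1.83% of all probe sets. The mock signals of both were also higher in the null mice. The same mock arrays enter both results, which are therefore not independent. For *Cd74* the difference was -0.10 (-0.63 to 0.42) and for *Cd79b* 0.15 (-0.32 to 0.61). The class II chains had wide intervals, as for *H2-Aa*, 0.10 (-1.34 to 1.55), and *H2-Eb1*, -0.07 (-1.08 to 0.94).

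**Figure D3:**
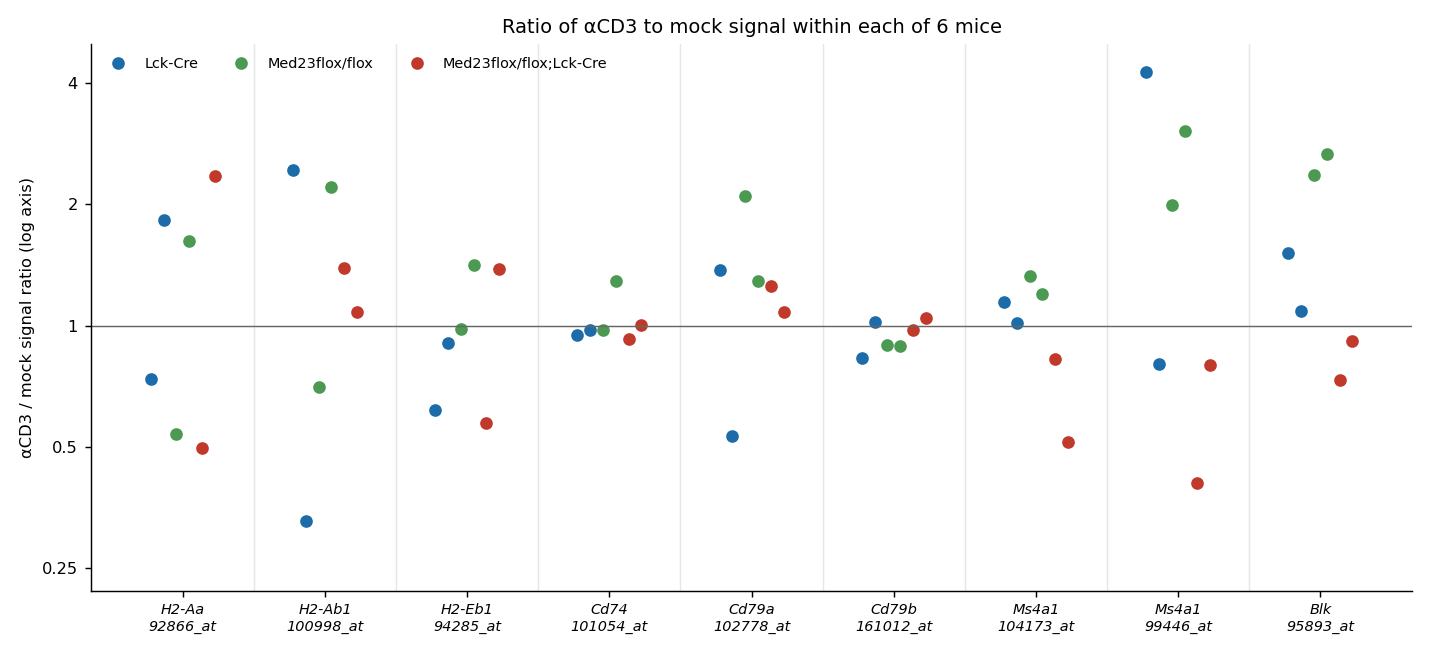
Ratio of αCD3 to mock signal (log axis) of the 9 tested member probe sets in each of the 6 mice, coloured by genotype, with a line at 1. *Cd74* and *Cd79b* stay between 0.831 and 1.29 in all mice, the class II chains lie on both sides of it, and both null mice (red) lie below 1 on the *Ms4a1* and *Blk* probe sets.

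Each control genotype was then taken on its own, with 2 mice in every group. In mock thymocytes no member was called in MED23 null against *Lck-Cre*, where 0% of all probe sets were, or against Med23flox/flox, where 0% were. At an unadjusted p under 0.05 there were 2 and 3 members of 9, and 7.3% and 7.34% of all probe sets. The *Ms4a1* 99446_at difference was 1.13 (SE 0.19, adjusted p = 0.318) against *Lck-Cre* and 0.95 (SE 0.19, adjusted p = 0.393) against Med23flox/flox. On 104173_at it was 0.55 and 0.64, and for *Blk* 0.55 and 0.83. Both control genotypes therefore lay below the null mice on these probe sets. For *H2-Aa* the picture depended on the control. The difference was 0.07 (-0.88 to 1.02) against *Lck-Cre* and -0.85 (-1.80 to 0.10) against Med23flox/flox. *Lck-Cre* lay 0.92 below Med23flox/flox (95% confidence interval of the difference -1.87 to 0.03, adjusted p = 0.879), in a comparison of the controls with each other where limma called no member and 0% of all probe sets, and where 0 of 9 members and 5.64% of all probe sets had an unadjusted p under 0.05.

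After αCD3 the control genotypes were again set against each other. In *Lck-Cre* against Med23flox/flox all 9 member probe sets were lower, with a median log2 difference of -0.483, whereas 53% of all probe sets were lower with a median of -0.0235. None was called by limma, nor was any probe set of the array (0%), and 0 of 9 members and 5.93% of all probe sets had an unadjusted p under 0.05. The lowest adjusted p was 0.81, for *H2-Eb1*, with a log2 difference of -0.56 (-1.16 to 0.04). Without the array that stood apart, 8 of 9 were lower and the median was -0.519. In null against *Lck-Cre*, 6 of 9 members were higher, with a median of 0.0661, and in null against Med23flox/flox 8 of 9 were lower, with a median of -0.436. No member was called in the former, where 0% of all probe sets were, nor in the latter, where 0% were. No member had an unadjusted p under 0.05 in either, as had 4.83% and 7.72% of all probe sets. These comparisons share arrays with the one between the controls. The *Cd74* differences were 0.16 (-0.42 to 0.73) and -0.15 (-0.73 to 0.43).

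How far the members marked a mouse was described by the share of their log2 variance over the 12 arrays that lay between mice, since the arrays of a mouse hold cells of the same thymus. *Cd79b* had 86.1% of its variance between mice and *Cd74* 74.2%. *H2-Ab1* had 59.8% and *H2-Aa* 58.3%. The others, *Ms4a1* 104173_at with 41.1%, *H2-Eb1* with 38.7%, *Blk* 95893_at with 35.1%, *Ms4a1* 99446_at with 33.7% and *Cd79a* with 33%, were under the 50.6% of the median probe set. Other genes, chosen for comparison with earlier results of these data known, had higher shares. That choice favours high shares, so these genes are not a neutral background. Cathepsin L (*Ctsl*), a protease of thymic epithelium that makes peptides for class II, had 98.9%, and the α-globin *Hba-a1* of red cells 99.4%. *Gzma* had 97.4% and *Cd52*, a surface protein of mature lymphocytes, 96.4%. With so few arrays per mouse, part of the chance spread between arrays falls between mice too. Shares near that of the median probe set therefore say little about a mouse. The share between mice also holds differences between genotypes. *Gzma* signals were 3268 to 4825 in null and 1018 to 1548 in control arrays, and those of *Cd52* were 1502 to 2014 and 3314 to 4480.

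The mouse means of *Ctsl* and *Hba-a1* are given beside those of the members. Their part in the members' values was not tested. *Ctsl* had mouse means of 9655 and 1669 in the *Lck-Cre* mice, 1780 and 11013 in the Med23flox/flox mice, and 6550 and 1864 in the null mice. *Hba-a1* had 15621 and 12634, 12289 and 5986, and 36661 and 14922. The highest mouse mean was 6.6-fold and 6.13-fold above the lowest, whereas over the 9 tested member probe sets this ratio ran from 1.34-fold for *Cd74* to 4.1-fold for *H2-Ab1*. No mouse was high for all members. Med23flox/flox replicates 1 and 2 each had the highest mouse mean for 3 of the 9 probe sets, and *Lck-Cre* replicate 2 had the lowest for 4.

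**Figure D4:**
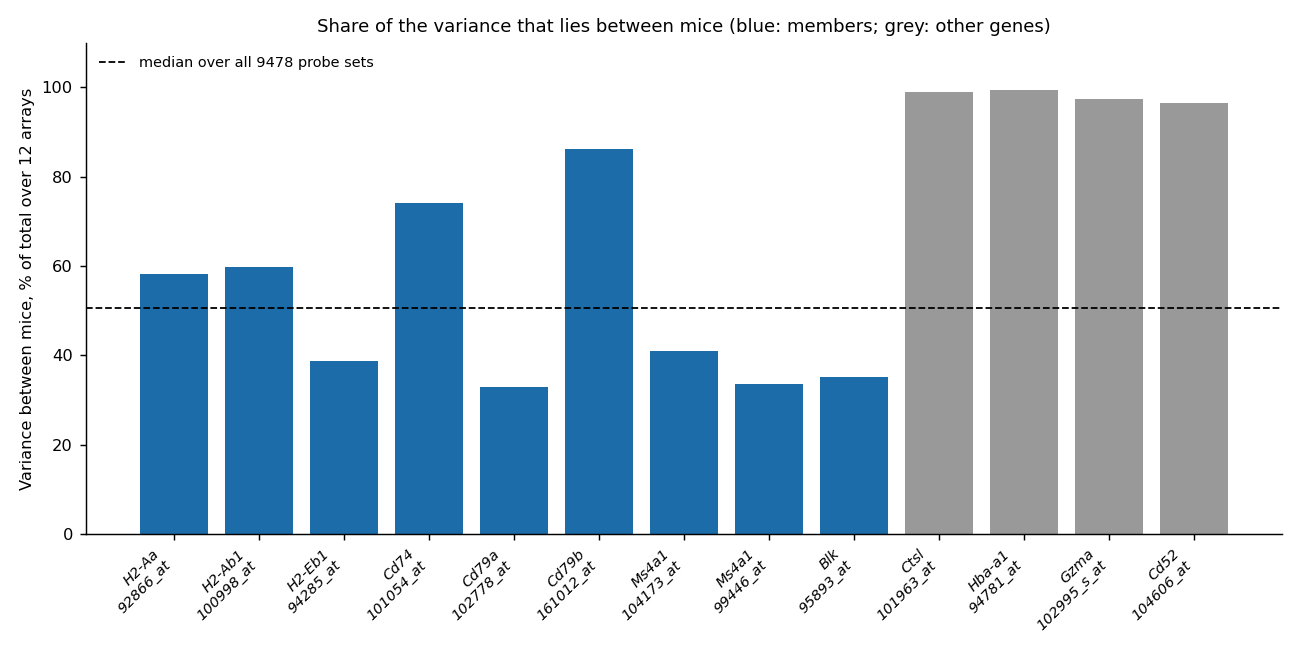
Share of the log2 variance over 12 arrays that lies between the 6 mice (bars, percent). The 9 tested member probe sets are in blue and 4 other genes, chosen with earlier results known, in grey. A dashed line marks 50.6%, the median over all 9478 probe sets. *Cd74* and *Cd79b* lie above the line, while *Ms4a1*, *Blk* 95893_at, *Cd79a* and *H2-Eb1* lie below it.

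The members moved together only in part. Over the 12 arrays, which come from 6 mice, the Pearson correlation of log2 values between class II members had a median of 0.24 over 6 pairs, highest for *H2-Aa* with *H2-Eb1* at 0.677. Between B-cell members the median was 0.366 over 10 pairs, highest for *Blk* with *Ms4a1* 99446_at at 0.711. The *Ms4a1* probe sets correlated with each other at 0.396, and *Cd79a* with *Cd79b* at 0.233. Across the groups the median was 0.145 over 20 pairs, with a lowest value of -0.466 for *H2-Aa* with *Ms4a1* 104173_at. Outside the members, the gene whose values were most like the mean of the class II members was *Psenen* (r = 0.866), followed by *Gpank1* (0.846), *Gna11* (0.813) and *Agfg1* (0.808). For the mean of the B-cell members it was *Phf7* (0.953), followed by *Qrsl1* (0.91), *Ung* (0.906) and *Fhl2* (0.891). These were picked as the highest over 12 arrays among the non-member probe sets with a single symbol that passed the filter. The marker genes of B-cells and class II cells in the lists were not among the closest 8 of either mean.

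The rest of the class II pathway was read from a list of 18 genes, of which 16 were on the array and 13 passed the filter. None was called in the mouse means of null against control, where 3 were higher and 10 lower, with a median of -0.133 on the log2 scale. *Ciita*, the master activator of class II transcription, had a difference of 0.65 (SE 0.25, adjusted p = 0.569), with signals of 190.2 to 428.7 in null and 101.2 to 251.2 in control arrays. *Cd40*, a receptor through which T-cells activate B-cells and dendritic cells, had -0.60 (SE 0.16, adjusted p = 0.431), *H2-Ob*, a chain of the peptide loading regulator H2-O, had -0.65 and *H2-DMb1*, a chain of the peptide loader H2-M, had -0.35.

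Of 32 other B-cell genes, 23 were on the array and 19 passed, and none was called, with 11 higher and 8 lower and a median of 0.0441. *Blnk*, an adaptor of the B-cell receptor, had a difference of 0.48 (SE 0.16, adjusted p = 0.512 from limma). *Pax5*, the factor that fixes B-cell identity, had -0.38 (SE 0.15, adjusted p = 0.592 from limma). Its signals of 68.1 to 462.3 in null arrays ran past both ends of the 209.2 to 423.7 in control arrays. *Plcg2* and *Igll1*, a phospholipase of B-cell signalling and a chain of the surrogate light chain, had 0.26 and 0.25. *Plcg2* signals were low, at 28 to 91.5 in null and 19.4 to 127.2 in control arrays.

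Among the other class II presenting cells, none of the 21 dendritic cell and macrophage genes that passed, of 28 listed and 25 on the array, was called. Of them 16 were higher and 5 lower, with a median of 0.181. *C1qc* and *C1qa*, complement genes of macrophages, had differences of 0.82 and 0.53, the granulocyte gene *S100a9* had 0.63, and *Ccr7*, which is also on the list of mature thymocytes, had -1.05. Of 14 thymic epithelial genes, 12 were on the array and 6 passed, 2 of them higher and 4 lower, with a median of -0.0992. *Krt5*, *Krt8*, *Krt14*, *Epcam*, *Ccl25* and *Foxn1* stayed under the filter. *Aire*, which has medullary epithelium show self antigens, had -0.34, *Ctsl* -0.26, *Cldn4* -0.18 and *Cd83* 0.10. *Ctsl* is also on the class II list and *Cd83* on the B-cell list.

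None of the genes on the remaining lists was called in these mouse means either. Of 9 NK and cytotoxic cell genes, 6 passed, 4 higher and 2 lower with a median of 0.14, and *Gzma* had 1.56 (SE 0.17, adjusted p = 0.11), with signals of 3268 to 4825 in null and 1018 to 1548 in control arrays. *Klrk1*, *Klrd1* and *Il2rb* had 0.43, 0.20 and -0.34. *Klrk1* signals were low, at 40.9 to 135.6 in null and 11.3 to 114.4 in control arrays. Of 5 erythroid genes that passed, of 10 listed, 4 were higher and the median was 0.53, with *Hba-a1* at 1.09, *Alas2* at 0.98, *Klf1* at 0.53 and *Car2* at -0.11. Of 11 genes of mature single positive thymocytes that passed, of 15 listed, 10 were lower, with a median of -0.783. *Cd52* had -1.14 (SE 0.13, adjusted p = 0.11), *Slfn1* -1.06 and *Tnfrsf4* -1.05. Of 16 T-lineage genes that passed, of 20 listed, 11 were lower, with a median of -0.16, among them *Cd5* at -1.26, *Cd2* at -0.83 and *Cd8b1* at -0.30, whereas *Thy1* had 0.34. *Cd5*, which tunes the T-cell receptor signal, was the only gene of these lists or the members that was called in any of the 12 comparisons. It rose with αCD3 by 2.67 on the log2 scale in control mice (adjusted p = 0.000478 from limma) and by 1.98 in null mice (adjusted p = 0.0338). Counted by gene, 5 of the 8 members that passed were higher and 3 lower in the mouse means, with a median of 0.0761, against -0.00179 over all probe sets.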

How the data were processed

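Thymocyte RNA of 6 mice was measured on 12 Affymetrix Murine Genome U74A Version 2 arrays, 1 per mouse and treatment. The deposited values are intensities, the linear MAS5 signals of 12488 probe sets, made by the authors with MAS5 (version not given in the sources used here). Gene names come from the platform annotation, in which 10833 probe sets have 1 symbol, 396 several and 1193 none. Members and gene lists were chosen with earlier results of these data known.

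Signals were scaled to a trimmed mean (2% left out at each end) of the first mock array, which changed none by more than 0.00603%, and log2(signal + 50) was taken. The 66 control probe sets were left out, and 9478 probe sets with a mean of at least 100 in at least 1 of 6 groups were kept. limma 3.58.1 (lmFit, eBayes) in R 4.3.3 was fitted to all of them, with Benjamini-Hochberg adjustment in each of 12 comparisons. Induction was the difference of log2 values within a mouse, with 4 residual degrees of freedom, since the labels give both arrays of a pair to 1 animal. Deviations of paired arrays from their group means correlated at 0.094, 0.149 and 0.061 in the 3 genotypes. The fit was tested on simulated data with known changes. Summaries and figures used Python 3.11.15, numpy 2.4.6, pandas 2.3.3 and matplotlib 3.10.9.

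All member probe sets are described, and from each of 8 other lists up to 4 genes with the largest difference in mouse means, together with the genes most like the members over the arrays. Promoter sequences are from RefSeq (GRCm38.p6). Alternatives were other pseudocounts, signal filters, scalings, a variance trend, 1 value per gene, replicate blocks, and fits without each mouse or without the array that stood apart. The number of arrays limits the precision of every value.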

Additional observations from a re-analysis of the deposited data

Results flagged for a closer look

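*Cd74* had an αCD3 to mock ratio of 1.291 in Med23flox/flox replicate 2, apart from the ratios of 0.9488, 0.9725 and 0.9735 in the other control mice. *Cd79b* had a mock signal of 778.8 in Med23flox/flox replicate 1, apart from 586.2, 588.4 and 595.7 in the other controls. These were the 2 of 33 groups of 4 control values in which 1 sample lay that far from the others by Dixon's test, and chance gives about 1 in 20.

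The αCD3 to mock ratio was above 1 in all 4 control mice and below 1 in both null mice on *Ms4a1* 104173_at, with a difference in induction of -0.73 on the log2 scale, and on *Blk* 95893_at, with -0.92. The limma test of that difference gave unadjusted p = 0.0206 and 0.0298 and adjusted p = 0.95 and 0.957. The pattern was held by 2 of 9 tested members and by 1.83% of all probe sets. *Ms4a1* 99446_at did not hold it, with a ratio of 0.803 in *Lck-Cre* replicate 2. The mock arrays on which the null mice were higher enter these ratios.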

How the results depend on the processing

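In 1815 member values recomputed under 19 alternatives, no member was called, the lowest adjusted p from limma being 0.158, and 29 changed sign by more than their standard error. Of these, 28 came from leaving out 1 mouse, 15 of them null replicate 2, and the other was *Cd79a* after αCD3 against Med23flox/flox, at 0.26 without the αCD3 array of Med23flox/flox replicate 1. The mock difference of null and control ranged from 0.98 to 1.11 for *Ms4a1* 99446_at, 0.53 to 0.66 for *Ms4a1* 104173_at and 0.50 to 0.88 for *Blk* 95893_at when 1 mouse was left out, with adjusted p over all alternatives of 0.158 to 0.532, 0.198 to 0.874 and 0.521 to 0.955. Over the fits that left out 1 mouse, *H2-Aa* ranged from -0.74 to 1.00 in the null induction, -0.77 to 0.97 in the difference in induction, -0.97 to 0.41 after αCD3 against control, -0.41 to 0.56 in mock against *Lck-Cre*, and -0.62 to 0.76 and -1.32 to 0.056 after αCD3 against *Lck-Cre* and Med23flox/flox. *H2-Ab1* ranged from -0.98 to 0.12 in mock and -1.03 to 0.39 after αCD3 against control, -1.01 to 0.26 in the mouse mean, -0.91 to 0.20 and -1.06 to 0.042 in mock and -0.85 to 0.69 and -1.28 to 0.15 after αCD3 against *Lck-Cre* and Med23flox/flox, and -1.25 to 0.28 between the controls after αCD3. *H2-Eb1* ranged from -0.74 to 0.43 in the null induction, -0.66 to 0.52 in the difference in induction, -0.42 to 0.25 in mock against control and -0.13 to 0.38 after αCD3 against *Lck-Cre*. *Cd79a* ranged from -0.27 to 0.25 in mock against *Lck-Cre*, -0.0055 to 0.51 between the controls in mock and -0.67 to 0.26 after αCD3 against Med23flox/flox, and *Blk* from -0.030 to 0.60 between the controls in mock. After αCD3, *Ms4a1* 104173_at ranged from -0.49 to 0.21 against control, -0.44 to 0.27 against *Lck-Cre* and -0.54 to 0.16 against Med23flox/flox, and *Ms4a1* 99446_at from -0.69 to 0.085 against control, -0.81 to 0.65 against *Lck-Cre* and -1.18 to 0.28 between the controls.

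Over all probe sets, the 14 calls of the control induction became 27 with a pseudocount of 100, 33 with a filter of 200, 4 with a variance trend, 9 without the αCD3 array of Med23flox/flox replicate 1 and 3 to 9 without 1 mouse. The 3 of the null induction became 1 with a pseudocount of 16, no filter, quantile scaling or a variance trend. With a variance trend there were 2 calls in mock and 5 after αCD3 of null against control, 12 in the mouse mean and 3 in mock null against *Lck-Cre*, and 1 in mock with a filter of 200. The cause was not tested. Paired by mouse, the design has a replicate block. With no replicate block the control induction gave 42 calls and the null induction 0, and with the mouse as a random replicate block (correlation 0.12) the control induction gave 61 and the difference in induction 1. Neither, nor the replicate number as a block across genotypes, called a member.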
